A study of Saccharomyces cerevisiae with 6 samples.

Results

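The genes described here are the 5 polyamine exporter genes TPO1 to TPO5 and the 4 polyamine synthesis genes SPE1 to SPE4 of budding yeast. They were chosen by name, through the gene symbols that the platform annotation gives to the probe sets, and each probe set of a gene was kept. This gave 10 probe sets for the 9 genes, since TPO2 has 2, out of 5498 probe sets tested for 5449 genes. The list was proposed with the difference between the groups on these arrays already known, so the members' differences are given as a description, no p-value is printed for them, and nothing is supported with them.

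RNA was measured on 6 Affymetrix Yeast Genome 2.0 arrays. All cells were of strain 26972c, an ammonium transport mutant with the mep1-1 allele, a deleted MEP2 gene, MEP3 present and a ura- background. The empty vector group (3 arrays) carried pYES3, and the GmbHLHm1 group (3 arrays) carried pYES3 with the soybean gene GmbHLHm1 (SAT1), which encodes a basic helix-loop-helix transcription factor, behind a galactose-activated GAL promoter. Cells of both groups were grown on glucose and proline, moved to 2% galactose with 0.5 mM ammonium sulfate (1 mM ammonium), and harvested after 12 h. The comparison asks how transcript levels differ in cells that hold the soybean gene. The labels call the replicates independent, but tubes were inoculated from shared starter cultures, so any p-value measures the spread between these samples only. Whether starters or transformants of the groups also differed cannot be told apart from the presence of the soybean gene.

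Polyamines (putrescine, spermidine and spermine) are small positively charged amines that bind nucleic acids and are needed for growth. Yeast makes putrescine from ornithine with ornithine decarboxylase (Spe1) and then adds aminopropyl groups, taken from decarboxylated S-adenosylmethionine, to form spermidine and spermine. Excess polyamine is pumped out in exchange for protons by Tpo1 to Tpo4, plasma membrane transporters of the DHA1 drug antiporter family, and is also excreted by way of Tpo5, a carrier of Golgi-derived vesicles. Tpo2 and Tpo3 are close paralogs of each other.

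Levels are log2 RMA intensities, and a difference is the GmbHLHm1 mean minus the empty vector mean on that scale. The deleted MEP2 lay under the array background on all 6 arrays, whereas all 10 member probe sets lay above it on all 6. The background was the 95th percentile of 1746 probe sets whose gene identifiers lay outside the R64 gene table of budding yeast, between 23.2 and 26.9 in linear intensity. Over all tested probe sets the median SD within a group was 0.050 for the empty vector and 0.088 for GmbHLHm1, and the number of arrays limits the precision. In the fit over all probe sets (limma, Benjamini-Hochberg, threshold 0.05), 661 of 5498 changed, 406 higher and 255 lower, or 335 higher and 336 lower after quantile normalization of the tested probe sets. No filter on dim probe sets was used in that fit, and the deleted MEP2 was itself past the threshold. It was lower by 0.40 (limma, adjusted p = 0.0435), so the calls include signal under the background. With only probe sets above background on at least 3 arrays, 405 were higher and 258 lower.

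Among the 10 member probe sets, 2 were past the threshold on the higher side, 1 of TPO2 and that of SPE1, and 1 on the lower side, that of TPO3. Over all tested probe sets 12% were past it, 7.38% higher and 4.64% lower. In 6 of the 10 the groups held no overlapping values, against 33.2% of all tested probe sets. The members' median difference was 0.09 and that of all tested probe sets 0.02. The 3 probe sets kept their side of the threshold in each of the 6 fits without 1 array.

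**Figure D1:**
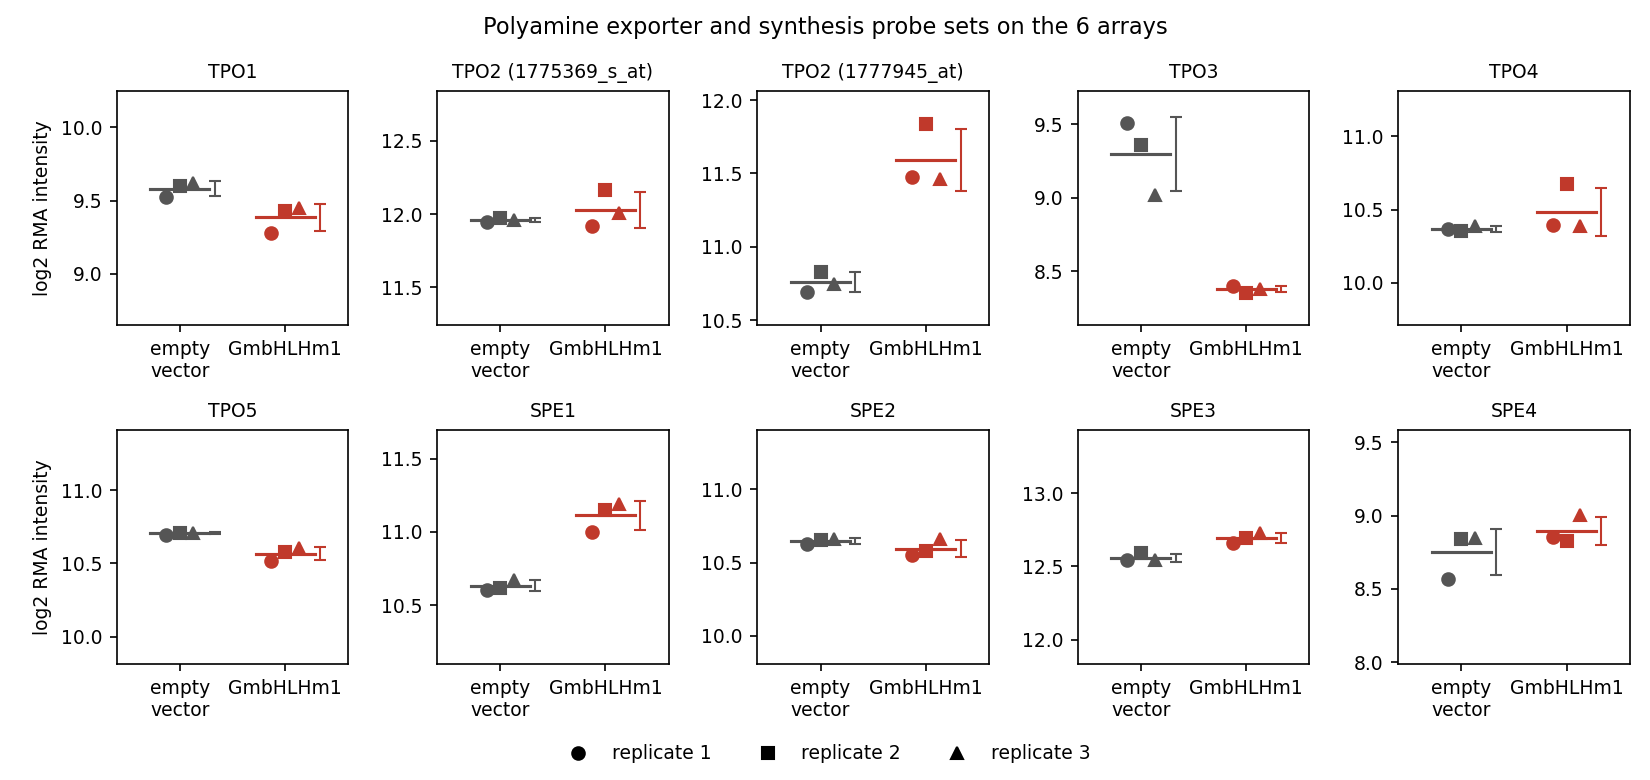
Log2 RMA intensity (y axis, every panel spans 1.6 units) of each of the 10 probe sets on the 3 empty vector arrays (grey) and the 3 GmbHLHm1 arrays (red); marker shapes give the replicate, horizontal lines the group mean and error bars the SD. The groups stand well apart for TPO2 (1777945_at), TPO3 and SPE1, while TPO4, SPE2, SPE4 and TPO2 (1775369_s_at) overlap.

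Of the exporters, TPO3 was lower in GmbHLHm1 cells. Tpo3 exports spermine. Its probe set read 9.51, 9.36 and 9.02 on empty vector replicates 1, 2 and 3, and 8.40, 8.35 and 8.38 on GmbHLHm1 replicates 1, 2 and 3. Every GmbHLHm1 array lay below every empty vector array, and the empty vector array nearest to them was replicate 3. The means were 9.30 ± 0.25 and 8.38 ± 0.02 (SD, n = 3 per group), a difference of -0.92 ± 0.12 (SE), which is a level 1.89-fold lower. Only 7 of the 5498 tested probe sets had a lower difference. The difference lay between -1.06 and -0.81 when any 1 array was left out.

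TPO3 also differed in how much its replicates spread. Its SD among the empty vector arrays, 0.252, stood at percentile 99.2 of all tested probe sets in that group, and its SD among the GmbHLHm1 arrays, 0.0229, at percentile 6.33 in that group. In 74% of all tested probe sets the SD was larger in the GmbHLHm1 group. The same held for 8 of the 10 member probe sets, and the exceptions were TPO3 and SPE4.

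TPO2, whose product also exports spermine, gave different answers from its probe sets. Probe set 1777945_at read 10.69, 10.83 and 10.75 on empty vector replicates 1, 2 and 3, and 11.48, 11.84 and 11.46 on GmbHLHm1 replicates 1, 2 and 3. All GmbHLHm1 arrays were above all empty vector arrays, with replicate 2 the highest. Its difference was 0.84 ± 0.10 (SE), from 10.76 ± 0.07 to 11.59 ± 0.21 (SD, n = 3 per group), or 1.79-fold, and 67 tested probe sets had a higher one. Without any 1 array it lay between 0.71 and 0.90.

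Probe set 1775369_s_at, named TPO2 as well, read 11.94, 11.97 and 11.96 on the empty vector arrays and 11.92, 12.16 and 12.01 on the GmbHLHm1 arrays. Here the groups overlapped, since GmbHLHm1 replicate 1 lay below all empty vector arrays. The difference was 0.07 ± 0.07 (SE), and it was not past the threshold. In Affymetrix naming the suffix _s_at marks a probe set whose probes match more than 1 transcript. Whether these probes also match TPO3 was not tested, because probe sequences were not used here. The difference given for TPO2 therefore depends on which probe set stands for the gene, and with the brighter one alone the members held 1 higher call in place of 2.

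The gap between these probe sets was steady within each group. On the log2 scale 1775369_s_at read above 1777945_at by 1.25, 1.14 and 1.21 on the empty vector arrays and by 0.44, 0.33 and 0.54 on the GmbHLHm1 arrays. The mean gap was 1.20 ± 0.05 and 0.44 ± 0.11 (SD, n = 3 per group), a shift of -0.76 between the groups. Of the 47 tested genes with more than 1 probe set, the median range of the difference between a gene's probe sets was 0.09, and TPO2 had the widest range of them, 0.76.

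**Figure D2:**
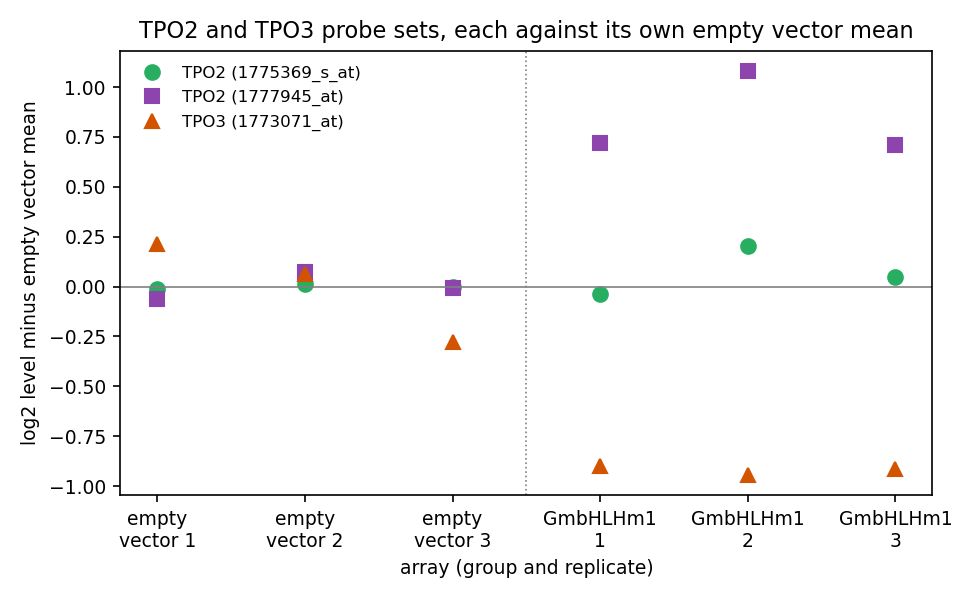
Log2 level of both TPO2 probe sets and of TPO3 on each of the 6 arrays (x axis), minus the probe set's own mean over the empty vector arrays (y axis). On the GmbHLHm1 arrays TPO2 (1777945_at) lies above 0, TPO3 below it, and TPO2 (1775369_s_at) near it.

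The other exporters showed smaller differences, none past the threshold. TPO1 and TPO4 encode transporters that take putrescine, spermidine and spermine. TPO1 read 9.53 to 9.62 on the empty vector arrays and 9.28 to 9.45 on the GmbHLHm1 arrays, without overlap, a difference of -0.20 ± 0.06 (SE). TPO5 read 10.70 to 10.71 and 10.52 to 10.61, also without overlap, a difference of -0.14 ± 0.04 (SE). The empty vector arrays were very close to each other for TPO5, with an SD of 0.0072. TPO4 read 10.35 to 10.39 on the empty vector arrays and 10.39 to 10.67 on the GmbHLHm1 arrays, with overlap, where only replicate 2 stood clearly higher, and its difference was 0.11 ± 0.08 (SE).

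Of the synthesis genes, SPE1 was higher in GmbHLHm1 cells. It encodes ornithine decarboxylase, the first enzyme of the pathway. It read 10.60, 10.62 and 10.67 on empty vector replicates 1, 2 and 3, and 11.00, 11.15 and 11.19 on GmbHLHm1 replicates 1, 2 and 3. The groups were clearly apart, with GmbHLHm1 replicate 1 the nearest to the empty vector arrays. The means were 10.63 ± 0.04 and 11.11 ± 0.10 (SD, n = 3 per group), a difference of 0.48 ± 0.06 (SE) or 1.40-fold, and it lay between 0.44 and 0.54 when any 1 array was left out. There were 185 tested probe sets with a higher difference.

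The later steps of synthesis were not past the threshold. SPE2, S-adenosylmethionine decarboxylase, read 10.63 to 10.66 on the empty vector arrays and 10.55 to 10.66 on the GmbHLHm1 arrays, with overlap, a difference of -0.05 ± 0.05 (SE). SPE3, spermidine synthase, read 12.54 to 12.59 and 12.66 to 12.73, without overlap, a difference of 0.13 ± 0.04 (SE). SPE4, spermine synthase, read 8.57 to 8.85 and 8.83 to 9.005, with overlap, a difference of 0.15 ± 0.09 (SE). Empty vector replicate 1 was the low array for SPE4, and without it the difference was 0.05.

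**Figure D3:**
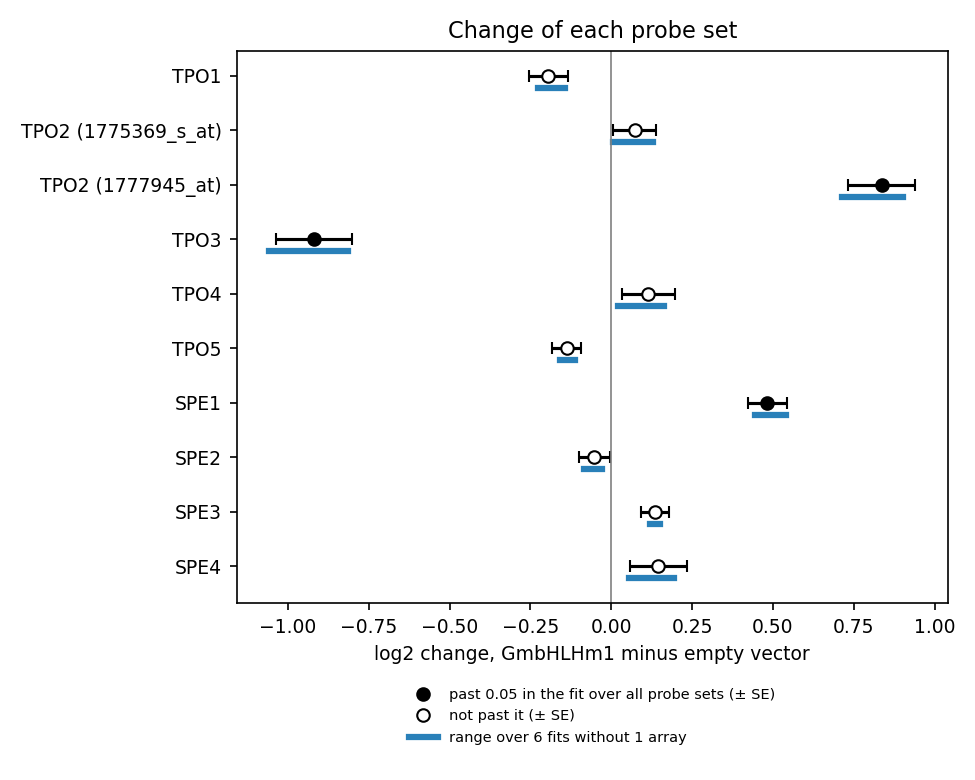
Log2 difference, GmbHLHm1 minus empty vector (x axis), of each member probe set with its moderated SE (points and black bars; filled where past 0.05 in the fit over all probe sets) and its range over the 6 fits that leave out 1 array (blue bars). TPO3 lies at -0.92, TPO2 (1777945_at) at 0.84 and SPE1 at 0.48, and the other probe sets lie between -0.20 and 0.15.

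Within the GmbHLHm1 group the arrays did not order the members evenly. Replicate 3 was the highest of the 3 arrays for 6 of the 10 probe sets (TPO1, TPO5 and all 4 SPE genes), and replicate 1 the lowest for 6. Over all tested probe sets replicate 3 was the highest for 25% and replicate 1 the lowest for 31.6%. In the empty vector group replicate 1 was the lowest for 8 of the 10, against 48.5% of all tested probe sets. The members share the arrays and the normalization, so these counts are a description.

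Lists of genes linked to the members by function were then examined. They were written with earlier results of these data known. Their counts, and the p-values given for single genes of the lists, are therefore a description and not independent support. Of 64 probe sets in 7 lists together, 11 rose and 16 fell (limma, adjusted p under 0.05, against 12% of all tested probe sets in either direction), with a median difference of -0.05. Of these 27 calls, 14 held in all 6 fits without 1 array.

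Genes linked to the use and breakdown of polyamines inside the cell included 1 large rise. OAZ1 encodes antizyme, which binds Spe1 and directs it to the proteasome, and whose own translation needs a frameshift that polyamines favour. OAZ1 read 11.59, 11.57 and 11.45 on the empty vector arrays and 12.48, 12.35 and 12.45 on the GmbHLHm1 arrays, with no overlap. It rose by 0.89 ± 0.06 (SE), with an adjusted p of 0.00019 by limma, so the transcripts of the enzyme and of its inhibitor were both higher on the same arrays. Of the 12 genes for polyamine use and breakdown, 4 rose and 1 fell, with a median difference of 0.20. ECM31, of pantothenate synthesis, rose by 0.42 and DYS1, which uses spermidine to modify the translation factor eIF5A, by 0.27. ANB1, an eIF5A gene that is nearly identical to HYP2 so that the assignment of signal between them is uncertain, rose by 0.22. HYP2 had a difference of -0.12 ± 0.04 (SE), the other direction, and was not past the test. Both were on the list but are named outside the naming rule, after their values were seen. ALD2, an aldehyde dehydrogenase gene of beta-alanine synthesis from spermine, fell by 0.23. Leaving out empty vector replicate 1, 2 or 3 ended each of these last 4 calls, as did leaving out GmbHLHm1 replicate 3. Without GmbHLHm1 replicate 1 those of ECM31 and ANB1 were lost too, and without GmbHLHm1 replicate 2 that of DYS1. The call of DYS1 also ended after quantile normalization or median centring, and that of ANB1 after quantile normalization. The highest adjusted p of these fits by limma was 0.131 for ECM31, 0.184 for DYS1, 0.155 for ANB1 and 0.101 for ALD2 without 1 array. In the 4 fits that lost them all, OAZ1 was the 1 call left of the list's 5. FMS1, the polyamine oxidase gene, had a difference of -0.01 ± 0.06 (SE; limma, adjusted p = 0.917).

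Most transporter genes of the uptake list fell, the vacuolar UGA4 among them, while a kinase gene of the list rose. Of 9 genes for polyamine uptake and its kinases, 1 rose and 5 fell, with a median difference of -0.40. PTK1, a protein kinase gene that promotes polyamine uptake, rose by 1.24 ± 0.09 (SE; limma, adjusted p = 0.000244), a fold of 2.37. The other kinase genes of the list, PTK2 and SKY1, had differences of 0.05 and -0.12, and AGP2 had 0.07. None of these was past the test, and they are named outside the naming rule, after their values were seen. UGA4, a vacuolar permease gene for gamma-aminobutyrate and putrescine, fell by 0.76 ± 0.06 (SE). GAP1, the general amino acid permease gene, fell by 0.59, DUR3, the urea and polyamine transporter gene, by 0.44, and HOL1, a polyamine importer gene of the DHA1 family, by 0.40 (limma, adjusted p = 0.0331, 0.00317 and 0.00953). SAM3, a permease gene for S-adenosylmethionine and polyamines, fell by 0.42; like ANB1 it was on its list and is named after its values were seen. Leaving out empty vector replicate 1, 2 or 3 or GmbHLHm1 replicate 1 ended the call of GAP1 (adjusted p up to 0.117), and that of HOL1 without empty vector replicate 1 (adjusted p = 0.0535).

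The genes that supply the precursors were mixed. Of 7 genes around ornithine, 2 rose and 1 fell, with a median difference of 0.00. CAR1, arginase, which releases ornithine from arginine, fell by 0.53 ± 0.09 (SE; limma, adjusted p = 0.0125). CAR2 and ARG3, whose enzymes consume ornithine, rose by 0.41 and 0.35. Leaving out empty vector replicate 1, 2 or 3 or GmbHLHm1 replicate 3 ended the call of CAR2 (limma, adjusted p up to 0.102). Of 9 genes for S-adenosylmethionine synthesis and for salvage of the methylthioadenosine that spermidine and spermine synthesis release, 2 rose and 1 fell. ARO9, an aminotransferase gene that also serves aromatic amino acid breakdown, rose by 1.09 ± 0.12 (SE), MEU1, the methylthioadenosine phosphorylase gene, rose by 0.21, and ADI1, a later enzyme gene of the salvage, fell by 0.34. The call of MEU1 was lost after median centring, and when GmbHLHm1 replicate 2 or 3 or an empty vector array (1, 2 or 3) was left out (limma, adjusted p up to 0.156 without 1 array). SAM1 and SAM2, the S-adenosylmethionine synthetase genes, had differences of -0.15 ± 0.22 and -0.09 ± 0.10 (SE), neither past the test.

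The DHA1 family, to which TPO1 to TPO4 belong, was examined through its other 8 genes, of which none rose and 3 fell, with differences between -0.56 and -0.02. FLR1, a multidrug exporter gene, fell by 0.56 ± 0.07 (SE; limma, adjusted p = 0.00267), YHK8, a family member of little known function, by 0.49, and HOL1, already given above, by 0.40. The median of these 8 was -0.21, against 0.02 over all tested probe sets.

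Haa1 is the transcription factor that switches on TPO2 and TPO3 under weak acid stress. HAA1 itself read 10.90 to 11.09 on the empty vector arrays and 11.11 to 11.20 on the GmbHLHm1 arrays, a difference of 0.14 ± 0.06 (SE; limma, adjusted p = 0.189). Of 9 genes in the Haa1 list, HAA1 included, 1 rose and 2 fell, with a median difference of 0.02. PHM8, a phosphatase gene that also belongs to the phosphate response, rose by 1.14 ± 0.05 (SE), YRO2, a membrane protein gene, fell by 0.77 ± 0.16, and YGP1, a secreted glycoprotein gene, fell by 0.50 ± 0.07. Leaving out empty vector replicate 1, 2 or 3 or GmbHLHm1 replicate 3 ended the call of YRO2 (limma, adjusted p up to 0.0967).

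Pdr1 and Pdr3 are the drug resistance factors that act on TPO1 among other transporter genes. Of 11 genes of their network, 1 rose and 4 fell, with a median difference of -0.17. PDR16, whose product transfers phosphatidylinositol, rose by 0.53 ± 0.05 (SE; limma, adjusted p = 0.00098). The ABC transporter genes SNQ2, YOR1, PDR15 and PDR10 (the last named after its values were seen) fell by 0.29, 0.28, 0.23 and 0.22. Leaving out empty vector replicate 1, 2 or 3 ended all 4 of these calls (limma, adjusted p up to 0.152), and the list's 5 calls became 1. Without GmbHLHm1 replicate 3 YOR1, PDR15 and PDR10 lost the call and 2 were left, and PDR15 also lost it without GmbHLHm1 replicate 1 and PDR10 without GmbHLHm1 replicate 2.

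**Figure D4:**
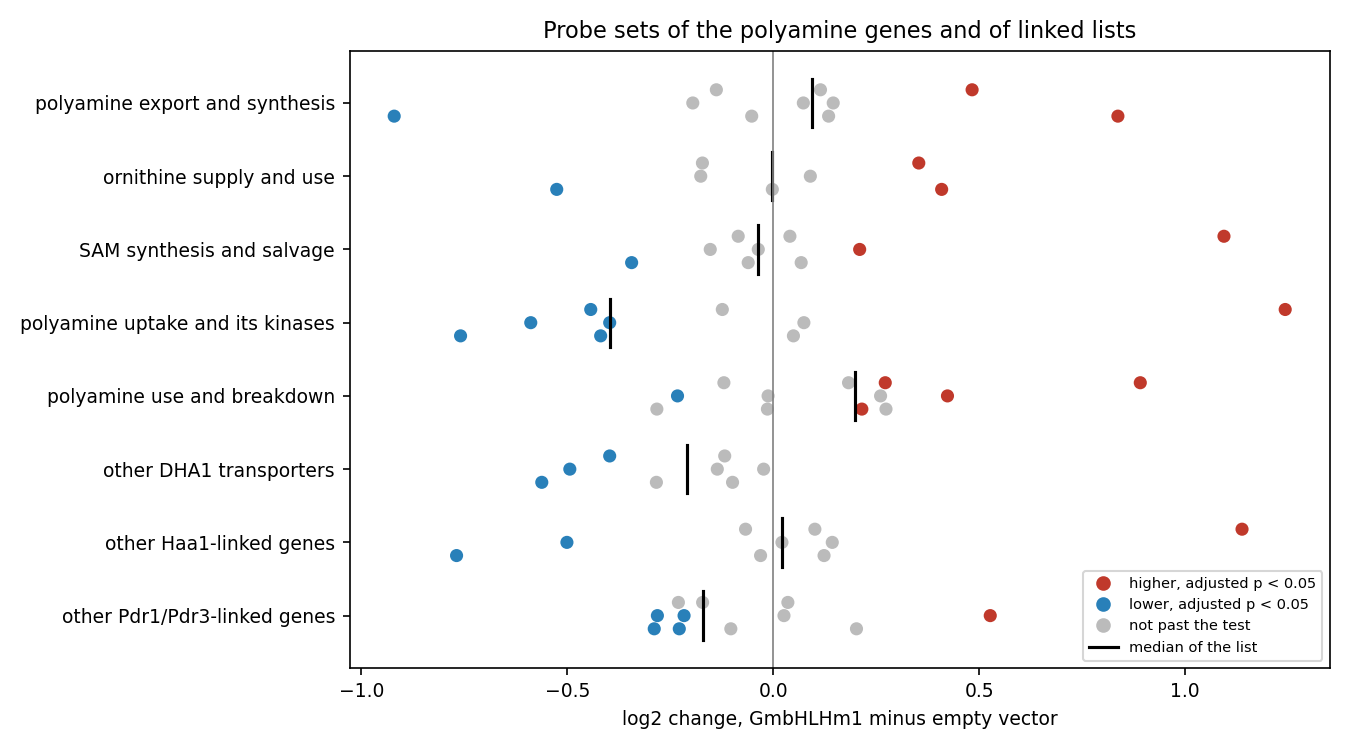
Log2 difference, GmbHLHm1 minus empty vector (x axis), of each of the 10 member probe sets (top row) and of the 7 linked lists (rows); red points were higher and blue points lower at an adjusted p under 0.05, grey points were not past the test, and black bars are list medians. In the top row the colours describe and do not test; the uptake list has its median at -0.40, and none of the other DHA1 transporters lies above 0.

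The probe sets most like TPO3 and TPO2 over the 6 arrays were found by the Euclidean distance between mean-centred log2 profiles, which weighs both the group difference and the spread of single arrays. Nearest to TPO3 were SUC2, the invertase gene, at a distance of 0.317, FLO11, a flocculin gene, at 0.373, the retrotransposon genes YAR009C and YDR261C-D at 0.379 and 0.384, and AQY1, an aquaporin gene, at 0.390. Their differences lay between -1.05 and -0.65. The probe sets of both retrotransposon genes carry the _s_at suffix. Nearest to TPO2 (1777945_at) were TIP1, a cell wall mannoprotein gene, at 0.108, GRX1, glutaredoxin, at 0.182, HDA1, a histone deacetylase gene, at 0.183, GDE1, a glycerophosphodiesterase gene, at 0.222, and THI7, a thiamine transporter gene, at 0.235. Their differences lay between 0.77 and 0.94.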

How the data were processed

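Total RNA of 6 cultures, 3 per group as the labels give them, was hybridized to Affymetrix arrays. The authors deposited RMA intensities, per the submitters' processing notes (software and version not given in the sources used here). Judged from their range, the values are linear, and log2 was taken. Probe sets with 1 gene symbol and a gene identifier in the R64 gene table were tested (5498); 3683 unnamed ones and 1746 with identifiers outside that table were not. ARG56 (ARG5,6), of the ornithine list, was not analysed here.

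All 5498 were fitted with limma 3.58.1 in R 4.3.3 (lmFit, eBayes, no block, no filter on dim probe sets), two-sided, with Benjamini-Hochberg adjustment and a threshold of 0.05. Each SE is limma's moderated SE. Simulated data with known changes were used to test the fit. They gave each probe set the same spread in both groups, so they did not test it under the unequal spreads of these arrays. Figures used matplotlib 3.10.9. The members, lists and tests were chosen with earlier results of these data known. Besides the members, the naming rule takes from each list at most 3 called genes with the highest and 3 with the lowest differences, HAA1, HOL1, OAZ1, FMS1, SAM1, SAM2 and MEP2, and the 5 probe sets most like TPO3 and like the member with the largest called rise.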

Additional observations from a re-analysis of the deposited data

How the results depend on the processing

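All 10 member probe sets (9 with 1 probe set per gene) kept their direction and their side of the threshold under a replicate block, quantile normalization, median centring, array weights, a filter on dim probe sets, 1 probe set per gene, and without any 1 array. With 1 probe set per gene the members held 1 higher call in place of 2, since TPO2 (1777945_at) was not used. Same-numbered arrays did not deviate together (r = -0.07, -0.08 and 0.14 across probe sets), so the labels' numbers are not taken as pairs. With the replicate block 290 probe sets were higher and 140 lower, and 2 calls were left in the list of polyamine use and breakdown and 1 in the Pdr1 and Pdr3 list, with 5 in that for uptake and 2 in that for S-adenosylmethionine. The block ended the calls of GAP1, MEU1, ALD2, ANB1, ECM31, SNQ2, YOR1, PDR10, PDR15 and MEP2. Without any 1 array the higher calls over all tested probe sets ranged from 174 to 431 and the lower from 81 to 309, and each was lowest without empty vector replicate 1. Calls ranged from 1 to 5 for polyamine use and breakdown, 1 to 6 for the Pdr1 and Pdr3 list, 4 to 6 for uptake, and 2 to 3 for the lists on ornithine, S-adenosylmethionine, DHA1 and Haa1. The shift between the TPO2 probe sets ranged from -0.82 to -0.71. Among the values of single genes under these alternatives 73 kept their direction but were no longer past the threshold, and SAM1, SAM2 and FMS1, none past the test, changed sign without GmbHLHm1 replicate 2, 2 and 1. Background correction could not be varied from RMA values.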

Other observations

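The genes next to the members on the chromosomes, by their order in the R64 gene table, were read as well; this was chosen after seeing the data. Of 18 neighbours 17 were tested, of which 2 rose and 1 fell (limma, adjusted p under 0.05), a count near the share over all tested probe sets, of which 7.38% were higher and 4.64% lower. TDA6, beside TPO3, fell by 0.18 ± 0.04 (SE), MOD5, beside TPO4, rose by 0.20 ± 0.05, and ASH1, beside SPE1, rose by 0.23 ± 0.06. The largest difference of a tested neighbour was that of YKL183C-A, on the other side of SPE1, 0.85 ± 0.25 (SE), which was not past the test. All of these genes were named after their values were seen. Neither tested neighbour of TPO2 was past the test.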
